A study of Mus musculus with 4 samples.

Results

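Troponin is the calcium switch of the thin filament of striated muscle. It holds 3 subunits: troponin C binds calcium, troponin I inhibits the contact of actin with myosin, and troponin T ties the complex to tropomyosin. Each subunit is made in isoforms that are characteristic of slow, fast or cardiac muscle, and the cardiac troponin T gene is also used by embryonic and regenerating skeletal muscle before the adult isoforms take over. The 7 troponin genes described here were taken by symbol from the 25827 genes listed in each library, and each symbol was found once. They are Tnnc1 (slow and cardiac troponin C), Tnnc2 (fast troponin C), Tnni1 (slow troponin I), Tnni2 (fast troponin I), Tnnt1 (slow troponin T), Tnnt2 (cardiac troponin T) and Tnnt3 (fast troponin T). Tnni3, the cardiac troponin I gene, is no member and held 74, 35, 43 and 64 unique molecular identifiers (UMIs, 1 per captured RNA molecule) in the libraries Pax7Cre replicate 1, Pax7Cre replicate 2, miR-501KO replicate 1 and miR-501KO replicate 2.

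The study asked what deletion of miR-501 does to myogenic progenitor cells during muscle regeneration. All mice were 12 weeks old and male, and all received cardiotoxin, which kills muscle fibres and sets off their regrowth, in the tibialis anterior, a fast muscle, 6 days before the cells were taken. Cells were sorted for α7-integrin and against CD45, CD31 and Sca1, and 10x Genomics 3′ libraries were sequenced. Pax7Cre control mice carried a Cre recombinase driven by Pax7, the transcription factor of muscle stem cells, and miR-501KO mice carried the same Cre with a floxed miR-501 gene (Pax7Cre miR-501fl/Y) as their littermates. Each of the 4 libraries pooled cells of 3 mice, 2 libraries were made per group, and 1 library of each group came from each of 2 independent runs. All p-values therefore rest on 2 pooled libraries per group. The Cre was not inducible, and the libraries count polyadenylated RNA from its 3′ end, which listed no row for miR-501, so the deletion itself was not checked here.

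The 4 libraries held between 73665012 and 117527749 UMIs. Of 16519 barcodes, 10450 passed the minimum of 5000 UMIs and 1000 genes and are the cells described, with a median of 25254 to 34579 UMIs per cell in the 4 libraries. Of the kept barcodes, 10 occurred in more than 1 library. Clustering, from which the troponin genes and other sarcomere genes were left out (39 genes), gave 17 clusters. They included quiescent-like cells (2308 cells, 9 of 12 quiescence markers raised, led by Chodl), cycling-like cells (2025 cells in 2 clusters) and committed-like cells (1295 cells). The committed-like cells fell into cluster 3 (1083 cells, 7 of 10 commitment markers raised, led by Cnr1 and Myog, the gene of myogenin) and cluster 12 (212 cells, 9 of 10 raised, led by Myh8 and Myh3, the perinatal and embryonic myosin heavy chains, which were not used for clustering), and cluster 12 also had 8 of 10 myofibre markers raised. Myofibre-like cells, with 10 of 10 myofibre markers raised, numbered 30, of which 2, 18, 5 and 5 lay in Pax7Cre replicates 1 and 2 and miR-501KO replicates 1 and 2. Macrophage-like, mural-like and Schwann-like cells (791 together) should lack troponin RNA and are called non-myogenic cells below. Fibroblast-like cells (254 cells) were not placed in that set. Cluster 6 (659 cells) came from miR-501KO replicate 1 alone, with 6 of 10 macrophage, 4 of 10 myofibre and 3 of 10 commitment markers raised, and stayed unnamed. Each result over all cells is given with this in view, since that library stands apart.

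Levels below are counts per 1000000 (CPM): the UMIs of a gene for every 1000000 UMIs of all genes in the named cells of a library. A 3′ UMI counts a molecule once, so levels were not divided by gene length. Unless another order is named, 4 values stand for Pax7Cre replicates 1 and 2 and then miR-501KO replicates 1 and 2.

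The stretch before the start of transcription is shown for the troponin genes because they differed in the cells that held them. Promoters of 250 bases were listed by RefSeq (GRCm38.p6) for 5 of the 7 genes, and Tnni2 and Tnnt3 were not among them. The first listed start of each gene is given 5′ to 3′, on the gene's strand, with E-boxes (CANNTG, the motif that myogenic factors such as MyoD and myogenin bind) in capitals. Tnnt2 and Tnni1 are first, then Tnnt1, then the troponin C genes. Of the sets of cells compared below, Tnnt2, Tnni1 and also Tnnc1 were highest in the same cluster of committed-like cells. A link between E-boxes and these levels was not tested.
Tnnt2 (chr1:135836084-135836333, plus strand): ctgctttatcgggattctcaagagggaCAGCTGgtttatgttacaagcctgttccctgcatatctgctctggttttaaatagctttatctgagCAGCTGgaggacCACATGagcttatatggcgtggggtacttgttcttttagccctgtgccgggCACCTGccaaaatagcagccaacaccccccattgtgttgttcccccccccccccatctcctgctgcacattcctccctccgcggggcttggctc
Tnni1 (chr1:135799171-135799420, plus strand): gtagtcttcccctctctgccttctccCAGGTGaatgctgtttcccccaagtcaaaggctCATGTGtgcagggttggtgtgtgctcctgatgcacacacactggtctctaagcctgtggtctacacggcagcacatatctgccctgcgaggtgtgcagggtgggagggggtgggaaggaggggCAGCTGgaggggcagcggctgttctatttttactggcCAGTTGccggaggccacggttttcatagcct
Tnnt1 (chr7:4515976-4516225, minus strand): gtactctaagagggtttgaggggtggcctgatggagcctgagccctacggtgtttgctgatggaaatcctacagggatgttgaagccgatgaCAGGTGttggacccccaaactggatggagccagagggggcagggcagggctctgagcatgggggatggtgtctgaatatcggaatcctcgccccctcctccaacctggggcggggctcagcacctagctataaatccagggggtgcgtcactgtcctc
Tnnc1 (chr14:31208062-31208311, plus strand): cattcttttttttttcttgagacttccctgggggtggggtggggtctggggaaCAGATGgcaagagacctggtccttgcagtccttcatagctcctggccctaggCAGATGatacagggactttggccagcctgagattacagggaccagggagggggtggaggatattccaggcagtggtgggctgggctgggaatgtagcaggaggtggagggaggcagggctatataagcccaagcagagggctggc
Tnnc2 (chr2:164779735-164779984, minus strand): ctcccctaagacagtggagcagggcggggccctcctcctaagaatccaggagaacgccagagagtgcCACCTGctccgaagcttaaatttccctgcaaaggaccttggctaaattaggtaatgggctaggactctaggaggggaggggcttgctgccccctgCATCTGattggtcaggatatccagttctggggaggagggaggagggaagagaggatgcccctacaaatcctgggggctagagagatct

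The Tnnt2 and Tnni1 windows held 4 E-boxes each, the Tnnc1 and Tnnc2 windows held 2 each and the Tnnt1 window held 1. A second start was listed for Tnnt2, with 1 E-box in its window, and for Tnni1, with 2. Among 32851 promoters of the same length, 66.2% held at least 1 E-box and 3.84% held 4 or more. The letters CATTCC, the core of the MCAT motif of muscle promoters, were read on both strands and occurred once in the Tnnt2 and once in the Tnnc1 window, against 12.6% of all promoters. TATAAA occurred in the Tnnt1 window, against 12.4% of all promoters, and the MEF2 site was in none of the 5 windows, against 2.92%. A match is a string of letters and not evidence of binding. In the RefSeq annotation of that assembly the genes lie in pairs of a troponin I and a troponin T gene: Tnnt1 lies next to Tnni3, Tnni1 and Tnnt2 have 1 gene (Lad1) between them, and Tnni2 and Tnnt3 have 2 (Lsp1 and Prr33). The members of the Tnni1 and Tnnt2 pair were both highest in cluster 12, and the members of the Tnni2 and Tnnt3 pair were both highest in myofibre-like cells. This was not particular to neighbours: Tnnc1 on chromosome 14 was also highest in cluster 12, and Tnnc2 on chromosome 2 in myofibre-like cells. In the remaining pair Tnnt1 was 168 to 250 CPM over all cells and Tnni3 was 0.487 to 0.868 CPM. A link between position and level was not tested.

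The troponin RNA lay in different cells for different isoforms. Of all Tnnc2 UMIs in the 4 libraries, 57.2% were in the 30 myofibre-like cells, as were 48.9% of Tnni2 and 44.4% of Tnnt3 UMIs. Pax7Cre replicate 2, with 18 of these cells, carried much of this: the Tnnc2 share was 13.5, 85.4, 47.2 and 38.8% in the 4 libraries, and without Pax7Cre replicate 2 the pooled shares were 37.2% for Tnnc2, 29.98% for Tnni2 and 28.5% for Tnnt3. Of Tnnt2 UMIs 0.191% were there (0.313% without Pax7Cre replicate 1 and 0.102% without Pax7Cre replicate 2), and 70.1% were in committed-like cells. Cluster 12 alone, with 212 of 10450 cells, held 78.1% of Tnnc1 UMIs and 47.5% of Tnni1 UMIs. Committed-like cells held 76.0% of Tnni1 and 50.3% of Tnnt1 UMIs. Tnnt1 was the most widely spread: 13.7% of its UMIs lay in cycling-like and 8.45% in quiescent-like cells.

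The order of levels below is over 6 sets of cells: non-myogenic, quiescent-like and cycling-like cells, clusters 3 and 12, and myofibre-like cells. Among these, the slow and cardiac troponin C gene Tnnc1 was highest in cluster 12 and next in myofibre-like cells. Of the unnamed clusters, cluster 6 held 117 CPM of it in miR-501KO replicate 1, and cluster 7 (588 cells, led by mitochondrial genes) held 152.6, 36.9, 133 and 50.1 CPM. Its level was 5.26, 3.91, 6.42 and 3.65 CPM in quiescent-like cells, where non-myogenic cells held 5.32, 3.16, 3.32 and 2.92 CPM, so quiescent-like cells were not above that background. In cluster 3 it reached 13.2, 4.61, 22.6 and 25.6 CPM, and in cluster 12 it reached 1444, 1031, 1111 and 1450 CPM. Within a library, cluster 12 exceeded cluster 3 by 49.2 to 224 fold (median 83.0), the widest step between these clusters among the 7 genes. In myofibre-like cells Tnnc1 was 816, 130, 76.3 and 45.2 CPM, below cluster 12 in each library, and the 816 CPM rest on 2 cells. The fast troponin C gene Tnnc2 followed another order. Of the 6 sets it was lowest in non-myogenic cells (16.0 to 43.4 CPM) and cycling-like cells (33.8 to 43.9 CPM), whose ranges overlap, while the unnamed cluster 2 (2107 cells) held 18.96 to 28.4 CPM, and it was 57.1 to 79.2 CPM in cluster 3, which overlapped quiescent-like cells (64.4 to 160 CPM). It was 2361, 2687, 2336 and 2269 CPM in cluster 12 and 30607, 36829, 34251 and 41653 CPM in myofibre-like cells. Within a library, cluster 3 was above quiescent-like cells in Pax7Cre replicate 1 and below them in the other 3.

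The troponin I genes, whose product blocks contraction when calcium is low, also separated. The slow gene Tnni1 was lowest in quiescent-like cells at 12.9, 7.45, 12.7 and 7.60 CPM, which overlapped non-myogenic cells (9.87 to 23.0 CPM). It was 507, 391, 415 and 438 CPM in cluster 3 and 2690, 2146, 2330 and 2291 CPM in cluster 12. Myofibre-like cells lay between these clusters at 639 to 1224 CPM. Tnni1 was the gene with the most even step from cluster 3 to cluster 12, at 5.23 to 5.61 fold in the 4 libraries. The fast gene Tnni2 was 38.3, 39.5, 71.3 and 97.9 CPM in quiescent-like cells and 38.7 to 53.1 CPM in cycling-like cells, and it overlapped between them. It rose over the clusters from 110, 78.1, 156 and 108 CPM in cluster 3 to 1296, 1481, 1250 and 1147 CPM in cluster 12 and 14589, 17569, 15668 and 23040 CPM in myofibre-like cells. In each library the myofibre-like cells held 11.3 to 20.1 times the Tnni2 level of cluster 12.

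Of the 3 troponin T genes, which anchor the complex to tropomyosin, the cardiac gene Tnnt2 had the highest level of any troponin gene in cluster 3 and cluster 12. It was 21.8, 11.1, 13.5 and 12.9 CPM in quiescent-like cells, lower in each library than in non-myogenic cells (38.7, 29.6, 50.7 and 40.1 CPM). It was 224, 143, 157 and 222 CPM in cycling-like cells, 1965, 1666, 1598 and 1802 CPM in cluster 3 and 4838, 3703, 3668 and 4804 CPM in cluster 12. In myofibre-like cells Tnnt2 was 144, 150, 215 and 103 CPM, within the range of cycling-like cells or under it. The median share of mitochondrial UMIs was 0.049% in myofibre-like cells and 5.17% in cluster 12. Whether myofibre-like cells are a later stage of cluster 12 was not tested. Tnnt2 was also found in fibroblast-like cells of 3 libraries (425, 12.0, 296 and 239 CPM, over 24, 11, 70 and 149 cells).

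The slow gene Tnnt1 was the troponin gene with the highest level in quiescent-like cells of the Pax7Cre libraries. It was 119, 98.5, 110 and 106 CPM there, against 36.9, 10.3, 16.0 and 27.1 CPM in non-myogenic cells. After thinning of each cell to 5000 UMIs, 37.1, 28.1, 33.9 and 28.7% of quiescent-like cells held a Tnnt1 UMI, against 13.5, 3.10, 7.96 and 6.25% of non-myogenic cells. The median depth before thinning was 20659 to 26871 UMIs in quiescent-like and 14536 to 20602 UMIs in non-myogenic cells. Tnnt1 was 561, 367, 437 and 505 CPM in cluster 3 and 1394, 1108, 1348 and 1553 CPM in cluster 12. Its level in myofibre-like cells (712 to 2100 CPM) overlapped cluster 12. The fast gene Tnnt3 was 51.8, 50.7, 109 and 122 CPM in quiescent-like cells and 41.3, 32.6, 60.2 and 43.8 CPM in cycling-like cells. It was 219, 126, 239 and 254 CPM in cluster 3, 3035, 3358, 3407 and 3002 CPM in cluster 12 and 15177, 24876, 30854 and 31179 CPM in myofibre-like cells. The order of the 3 troponin T genes thus differed between these sets: Tnnt2 was above Tnnt3 in cluster 3 and cluster 12, and Tnnt3 was above Tnnt1 and Tnnt2 in myofibre-like cells, in each of the 4 libraries.

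**Figure D1:**
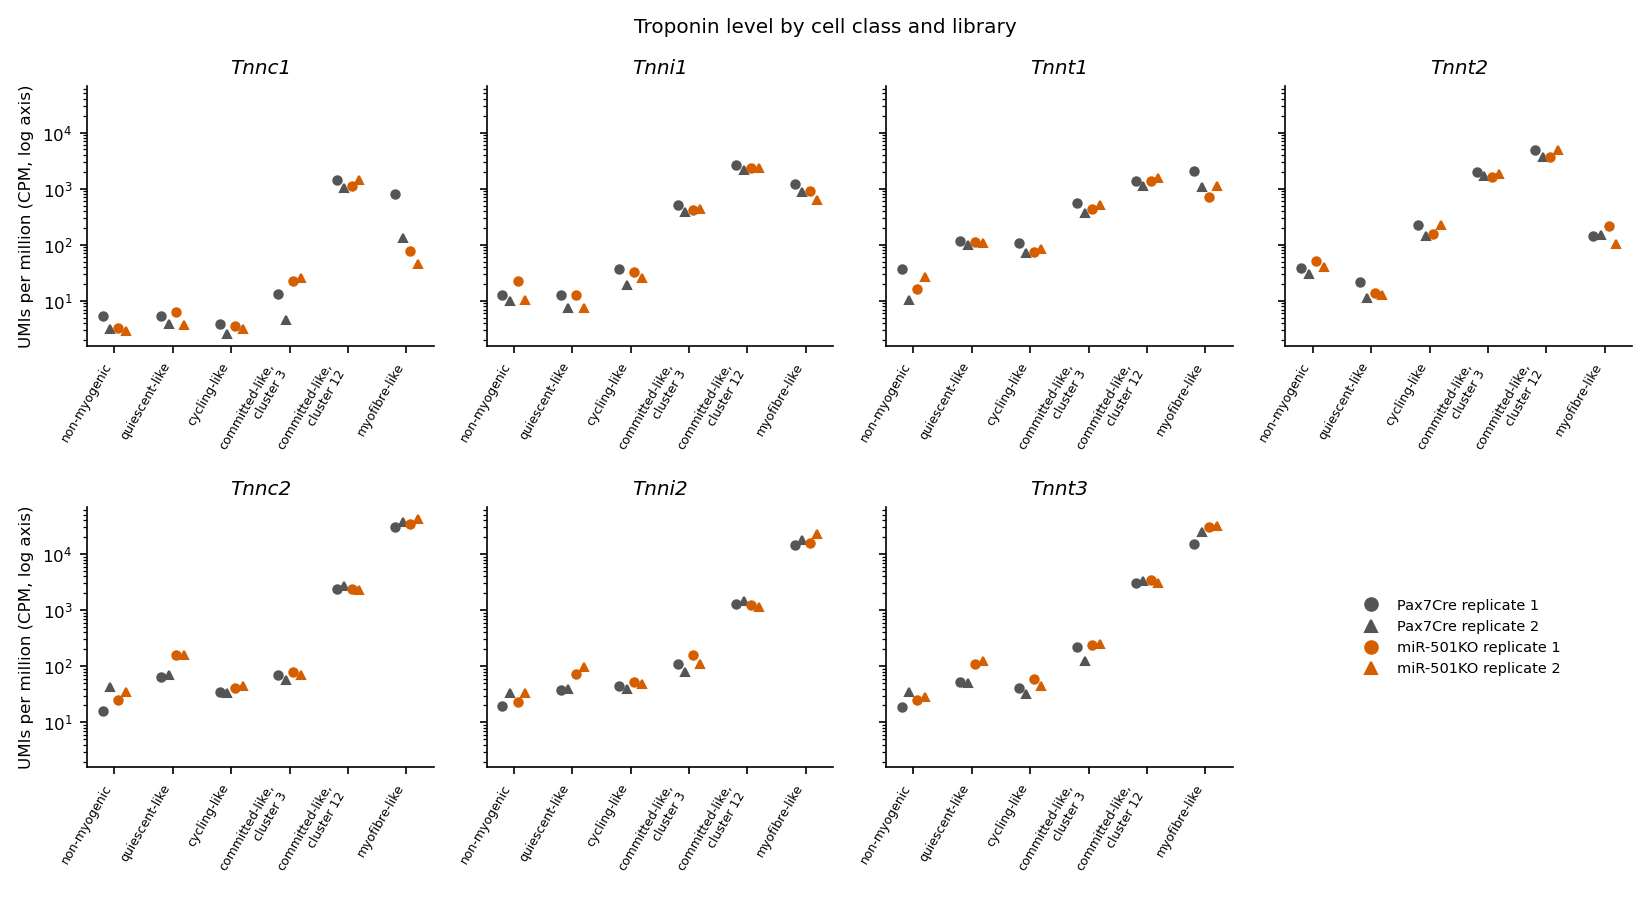
Level of each troponin gene in CPM (log axis) over 6 sets of cells, with 1 point per library (Pax7Cre grey, miR-501KO orange, circles for replicate 1 and triangles for replicate 2). Tnnc2, Tnni2 and Tnnt3 (lower row) are highest in myofibre-like cells, while Tnnc1, Tnni1 and Tnnt2 are highest in cluster 12 in each library. In myofibre-like cells Tnnt2 lies between 103 and 215 CPM.

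The share of the fast isoform within a subunit does not depend on the total count of a library. Summed over the libraries, Tnnc2 made up 95.8% of troponin C UMIs in quiescent-like, 91.8% in cycling-like, 81.8% in cluster 3, 64.7% in cluster 12 and 99.6% in myofibre-like cells. Tnni2 made up 85.6%, 60.6%, 19.5%, 34.5% and 95.2% of troponin I UMIs in the same order of cells. Tnnt3 made up 39.7%, 13.3%, 8.31%, 35.5% and 95.8% of troponin T UMIs. The fast share was therefore lowest in cluster 3 for troponin I and troponin T but in cluster 12 for troponin C. In quiescent-like cells these shares rest on few UMIs, 6449 of troponin C and 3957 of troponin I over the 4 libraries. Tnnc1 and Tnni1 overlapped non-myogenic cells there, so the troponin C and I shares set the fast genes against levels near background. The pooled shares of these cells also join groups that differ in the fast genes. Tnnt3 was 51.8 and 50.7 CPM in Pax7Cre and 109 and 122 CPM in miR-501KO. Tnnt2 made up 72.3% of troponin T UMIs in cluster 3, 49.1% in cluster 12 and 0.592% in myofibre-like cells.

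**Figure D2:**
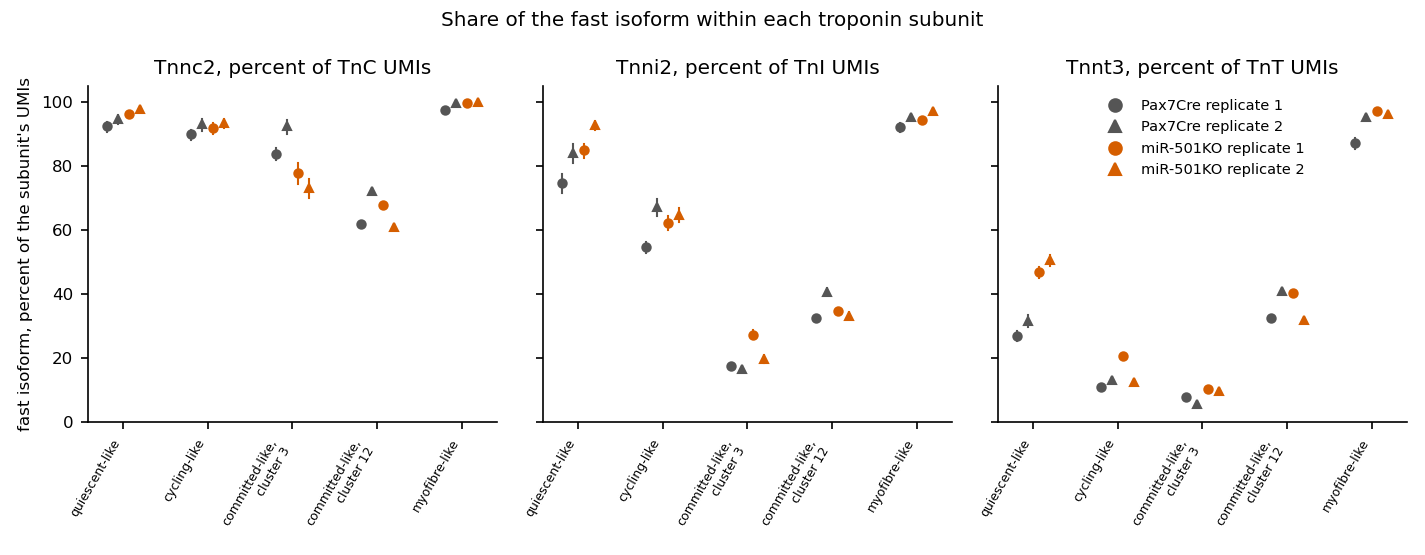
Percent of each subunit's UMIs that came from the fast isoform (Tnnc2, Tnni2, Tnnt3) in 5 sets of cells, with 1 point per library and bars for the 95% Wilson interval, which covers counting error only. All points of myofibre-like cells lie at or above 87.1%, and the Tnnt3 points of cluster 3 lie between 5.86 and 10.5%.

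Slow and fast isoforms were found in the same cells in most of the sets compared. Among the 211 cells of cluster 12 with at least 10 UMIs of Tnni1 and Tnni2 together, 100% held both, and the same was true of Tnnt1 and Tnnt3 in 211 cells. Of 186 cells with at least 10 troponin C UMIs, 94.6% held both Tnnc1 and Tnnc2. In these cells the median fast share was 65.8% for troponin C, 29.1% for troponin I and 68.9% for Tnnt3 over Tnnt1 and Tnnt3. In cluster 3 a mixture was seen in 84.9% of 491 cells for troponin I and 77.1% of 607 cells for troponin T. For troponin C it was seen in 45% of 60 cells, with a median fast share of 98.7%. In the 30 myofibre-like cells the median fast share was 99.9%, 96.0% and 97.2% for troponin C, I and T. Free RNA in the droplets can add a few UMIs of a second isoform, and its part in these shares was not tested.

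To set the troponin genes in order without using them, cells were thinned to 5000 UMIs and placed in 8 bins. The bins follow the summed UMIs of 12 other sarcomere genes (among them Actc1, Mylpf, Myh3, Myh8 and Ttn). Clusters from a single library were left out. All other kept cells were placed, non-myogenic and fibroblast-like cells included, so the bins do not order myogenic cells alone. A bin counts only libraries with at least 20 cells in it, and values are means of libraries. In the bin of 20 to 49 sarcomere UMIs, 73.5% of cells held a Tnnt2 UMI, 55.5% a Tnnt1 UMI, 44.2% a Tnnt3 UMI and 43.2% a Tnni1 UMI. In the same bin 33.3% held Tnni2, 29.8% Tnnc2 and 4.09% Tnnc1. Tnnt2 was thus found in the most cells and Tnnc1 in the fewest.

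In the bin of 50 to 99 sarcomere UMIs, Tnnt2 was found in 92.4% and Tnni1 in 82.8% of cells, while Tnnc1 was found in 6.71%. Tnnc2 was found in 24.1% of cells there, with 17.6 to 36.2% over the libraries, which overlaps the 20.2 to 42.6% of the bin before it. Only in the last bin, with 200 sarcomere UMIs or more, was Tnnc1 found in a majority of cells in each library (59.5 to 83.9%). In that bin Tnnt3 reached 98.1%, Tnni1 93.8%, Tnni2 92.8%, Tnnc2 89.4%, Tnnt2 88.3% and Tnnt1 88.0%. In each library Tnnt2 passed 50% of cells at 10 or 20 sarcomere UMIs, Tnni1 at 20 or 50, and Tnnc1 at 200. In cells with 0 or 1 sarcomere UMI, 19.3% still held a Tnnt1 UMI and 9.89% a Tnnt2 UMI, and the 3 fast genes were each found in 9.01 to 9.39%. The bins order cells of 1 time point and are not a time course.

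**Figure D3:**
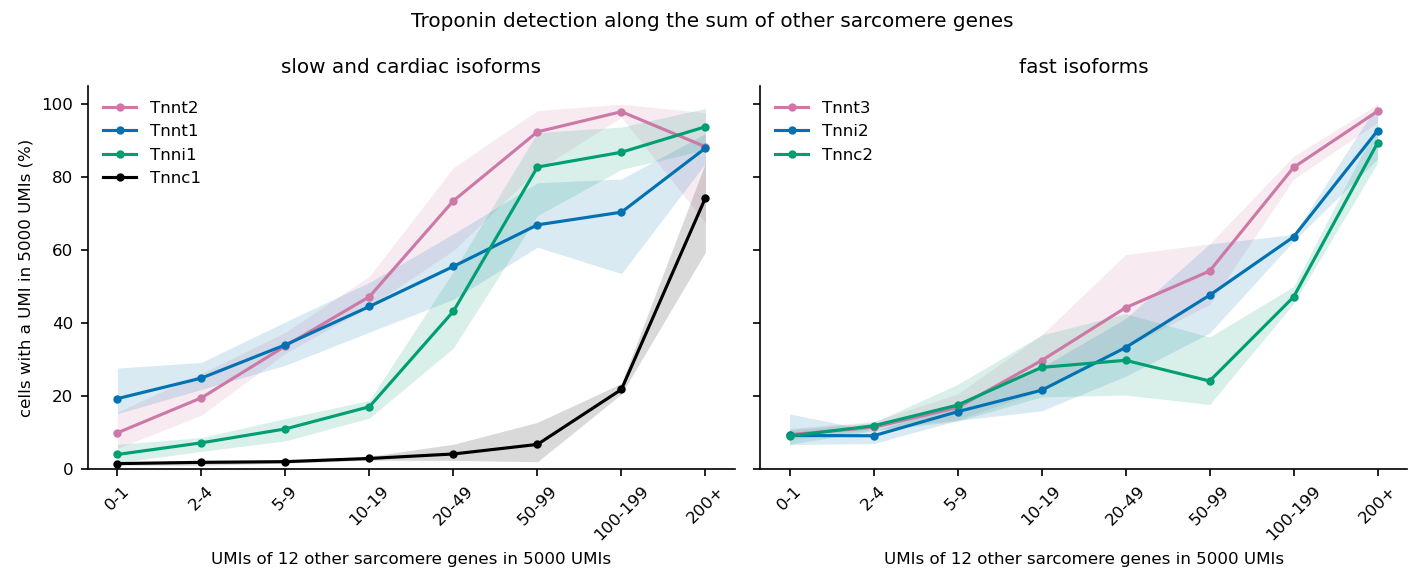
Percent of cells with at least 1 UMI of a troponin gene in 5000 UMIs (vertical axis) against the summed UMIs of 12 other sarcomere genes in the same 5000 (horizontal axis, 8 bins). Lines are means over 3 or 4 libraries and bands run from the lowest to the highest library. Tnnt2 is at 73.5% in the bin of 20 to 49 sarcomere UMIs, where Tnnc1 is at 4.09%.

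Across 49 sums of cells (15 clusters by library, each of at least 20 cells), the genes with the pattern most like a troponin gene were named by Pearson's r of log2(CPM + 1) over 10920 genes, other troponin genes left out. These sums share libraries and clusters, so r is a description only. Tnnt2 was most like Mymx (r = 0.975), Myog (r = 0.955) and Hes6 (r = 0.926), the genes of the fusion peptide myomixer, of myogenin and of a bHLH repressor. Tnni1 was most like Actc1 (r = 0.954), the cardiac actin, Mymk (r = 0.949), the gene of the fusion protein myomaker, and Mymx (r = 0.948). Tnnt1 was most like Arl6ip5 (r = 0.947), Cacng1 (r = 0.945), a calcium channel subunit, and Hacd1 (r = 0.939).

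Tnnc1 was most like Itgb1bp2 (r = 0.968), Trim63 (r = 0.965), a muscle ubiquitin ligase, and Myh8 (r = 0.950). Myl1 was among the 3 nearest genes of each fast gene. Tnnc2 was most like Ckm (r = 0.954), the muscle creatine kinase, Myl1 (r = 0.951), a fast myosin light chain, and Tceal7 (r = 0.947). Tnni2 was most like Mylpf (r = 0.954), the fast regulatory light chain, Myl1 (r = 0.938) and Acta1 (r = 0.908), the skeletal actin. Tnnt3 was most like Myl1 (r = 0.942), Mylpf (r = 0.942) and Cav3 (r = 0.935), the muscle caveolin. Among the troponin genes themselves the highest values were 0.945 for Tnnc2 with Tnni2 and 0.942 for Tnni1 with Tnnt2, and the lowest was 0.630 for Tnnc2 with Tnnt2.

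The effect of miR-501 deletion was first tested on the sums over all cells. Tnnc2 was 165, 763, 493 and 226 CPM, Tnni2 was 111, 387, 269 and 143 CPM, and Tnnt3 was 210, 575, 492 and 245 CPM. The library with the highest value was Pax7Cre replicate 2 for these 3 genes, and the groups overlapped for all 7 genes. Relative to Pax7Cre, miR-501KO was higher in run 1 (2.99-fold for Tnnc2) and lower in run 2 (0.296-fold). In Pax7Cre replicate 2, 85.4% of Tnnc2 UMIs lay in the 18 myofibre-like cells, and in miR-501KO replicate 1, 47.2% lay in 5 such cells and 25.03% in cluster 6. In such a sum, more cells of a type and more RNA per cell cannot be told apart. None of the 7 troponin genes was called by edgeR's quasi-likelihood test at a Benjamini-Hochberg adjusted p under 0.05, and neither was any of the 15725 genes tested (0%). At an unadjusted p under 0.05 there were 440 genes, and DESeq2 called 13, none of them a troponin gene. Log2 fold changes ran from -0.37 for Tnnc2 to 0.20 for Tnnc1. The direction of the fast genes turned when the 5% of cells with the most UMIs were left out (0.30 for Tnnc2, 0.26 for Tnni2 and 0.25 for Tnnt3), and Tnnc2 ran from -1.08 to 1.07 when single libraries were left out.

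The share of all cells with a UMI in 5000 UMIs was higher in miR-501KO for the 3 fast genes. Tnnc2 was found in 15.7, 16.3, 41.6 and 21.7% of cells, Tnni2 in 17.2, 14.5, 37.7 and 19.9% and Tnnt3 in 20.01, 17.9, 42.8 and 23.5%. In these 3 genes each miR-501KO library lay above each Pax7Cre library, and miR-501KO replicate 1, which holds cluster 6, was far above miR-501KO replicate 2. An exact two-sided permutation test gave p = 0.333 for each (adjusted p = 0.741 over 10 comparisons), the smallest that 2 libraries against 2 allow. In the other 4 genes the groups overlapped, with exact p of 0.667 or 1. In cluster 6, 94.99% of cells held a Tnnc2 UMI and 90.1% a Tnnt3 UMI. Without the clusters that came from a single library, Tnnc2 was found in 15.7, 16.3, 24.1 and 21.7% of cells, Tnni2 in 17.1, 14.5, 22.1 and 19.9% and Tnnt3 in 19.98, 17.9, 26.5 and 23.5%. The difference of the group means was then 6.90 points for Tnnc2 (15.6 with those clusters), 5.20 for Tnni2 (12.9) and 6.06 for Tnnt3 (14.2), and the groups still did not overlap.

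In quiescent-like cells the 3 fast troponin genes rose in miR-501KO. Tnnc2 was 64.4 and 70.6 CPM in the Pax7Cre and 160 and 159 CPM in the miR-501KO libraries. Tnni2 was 38.3 and 39.5 CPM in Pax7Cre and 71.3 and 97.9 CPM in miR-501KO. Tnnt3 was 51.8 and 50.7 CPM in Pax7Cre and 109 and 122 CPM in miR-501KO. In each of these genes both miR-501KO libraries were above both Pax7Cre libraries, in run 1 by 2.49, 1.86 and 2.10 fold and in run 2 by 2.24, 2.48 and 2.40 fold for Tnnc2, Tnni2 and Tnnt3. The log2 fold change was 1.18 ± 0.15 (SE) for Tnnc2 (edgeR adjusted p = 9.84e-06), 1.07 ± 0.16 for Tnni2 (adjusted p = 0.000282) and 1.12 ± 0.15 for Tnnt3 (adjusted p = 4.54e-05). The test called 45 of 12628 genes (0.356%), 40 of them up, and 71 (0.562%) with a block for run, and 3 of the 7 troponin genes were called by either. DESeq2 called 14 genes, among them the same 3. Without the filter on low counts no gene was called, with adjusted p of 0.234, 0.973 and 0.279 for Tnnc2, Tnni2 and Tnnt3.

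The slow and cardiac genes were not called in these cells. Their log2 fold changes were 0.05 for Tnnc1, -0.09 for Tnni1, -0.07 for Tnnt1 and -0.40 for Tnnt2, with adjusted p from edgeR of 0.9998 each. The groups overlapped for these 4 genes. Tnnt2 was highest in Pax7Cre replicate 1 (21.8 CPM), and the other 3 libraries lay between 11.1 and 13.5 CPM. With cells thinned to 5000 UMIs, a Tnnc2 UMI was found in 21.8, 20.2, 28.9 and 35.8% of quiescent-like cells, Tnni2 in 15.1, 12.8, 20.8 and 26.0%, and Tnnt3 in 18.2, 18.4, 23.6 and 29.0%. In non-myogenic cells, at the median depths given above, a Tnnc2 UMI was found in 8.61, 18.6, 11.5 and 16.1%, Tnni2 in 9.02, 10.1, 11.9 and 11.5% and Tnnt3 in 11.1, 12.4, 11.1 and 7.29%. For Tnnc2 the quiescent-like share was close to that of non-myogenic cells in Pax7Cre replicate 2. It was above it in Pax7Cre replicate 1 and in both miR-501KO libraries. In fibroblast-like cells of the 3 libraries with at least 20 of them, a Tnnc2 UMI was found in 16.7 to 30%. Tnni2 was found there in 22.8 to 25% and Tnnt3 in 20.8 to 35.7%, so all 3 overlapped quiescent-like cells. Their levels there were 34.8 to 54.8 CPM for Tnnc2, 35.8 to 45.5 CPM for Tnni2 and 41.4 to 64.5 CPM for Tnnt3.

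**Figure D4:**
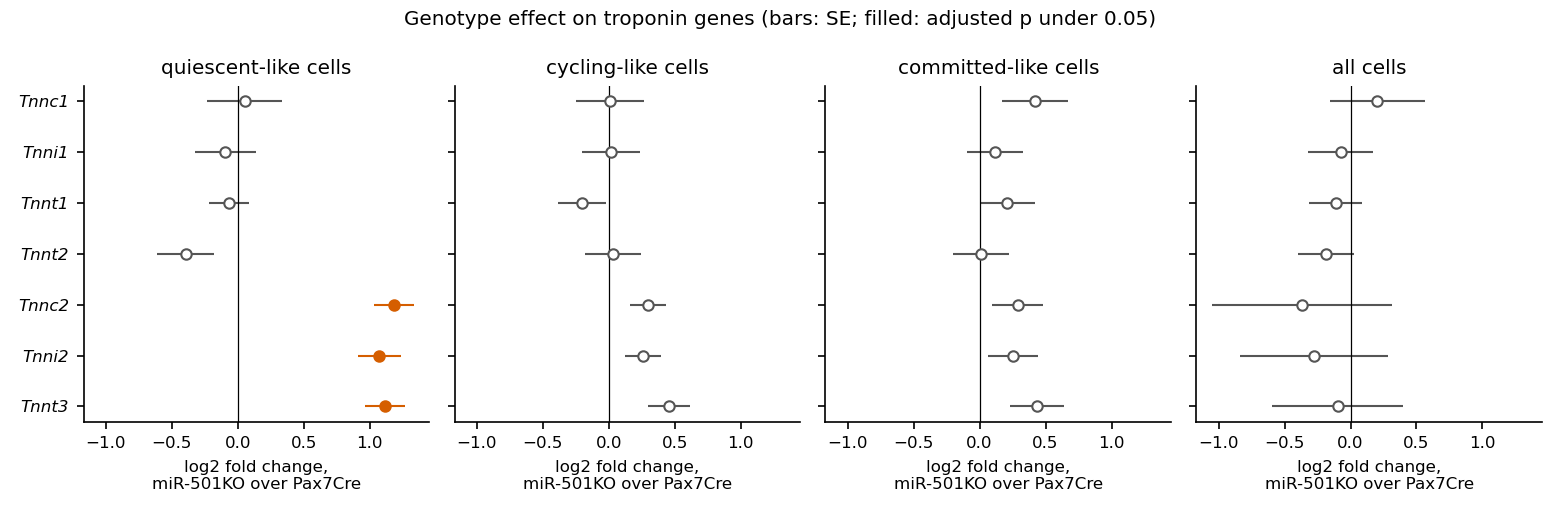
Log2 fold change of miR-501KO over Pax7Cre with its standard error for the 7 troponin genes in 4 sets of cells; filled points have an edgeR adjusted p under 0.05. Filled points are found in quiescent-like cells alone, for Tnnc2 (1.18), Tnni2 (1.07) and Tnnt3 (1.12).

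The UMIs of the fast genes were unevenly spread over quiescent-like cells. Most cells held 0 to 4 UMIs of Tnnc2, and 7.62, 9.51, 15.2 and 18.9% of cells held 5 or more. In miR-501KO replicate 1 the 6 cells with the most Tnnc2 UMIs held 48.6% of them, with 409 in 1 cell, against 16.6 to 18.3% in the top 1% of cells of the other libraries. Without the top 1% of cells, Tnnc2 was 54.3, 58.5, 83.9 and 133 CPM, Tnni2 was 32.3, 32.8, 45.1 and 80.3 CPM and Tnnt3 was 44.6, 43.2, 72.1 and 102.2 CPM. The groups still did not overlap, although miR-501KO replicate 1 moved closer to Pax7Cre. How many of all genes separate in this way was not counted, so the separation is a description only. Tnnt1, the slow gene, was more even: its top 1% of cells held 8.08 to 11.3% of its UMIs.

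Myofibre markers moved with the fast troponin genes in these cells. Summed over the 10 markers, they were 260 and 264 CPM in the Pax7Cre and 356 and 375 CPM in the miR-501KO quiescent-like cells, with 9, 9, 10 and 10 of the markers above 0. Ckm was 32.3, 38.3, 72.6 and 90.7 CPM and Pvalb was 11.4, 14.7, 34.1 and 36.4 CPM, while Actn3 was 140, 139, 135 and 127 CPM and Myh2 was at or near 0 in all 4 libraries. In non-myogenic cells the sum was 76.9, 89.6, 66.9 and 109 CPM. In barcodes with under 5000 UMIs, many of which may hold debris or free RNA, it was 1025, 2804, 1383 and 1320 CPM. Macrophage markers summed to 32.5, 24.9, 55.9 and 23.5 CPM in quiescent-like cells and did not separate the groups.

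The fast genes in quiescent-like cells stood in ratios that overlapped those of the barcodes with under 5000 UMIs. Tnni2 over Tnnc2 was 0.594, 0.558, 0.444 and 0.618 in quiescent-like cells, 0.605, 0.574, 0.531 and 0.597 in those barcodes and 0.457 to 0.553 in myofibre-like cells. It was 1.08 to 1.29 in cycling-like cells and 1.37 to 1.97 in cluster 3, with no overlap with quiescent-like cells. Cluster 12 (0.505 to 0.551) and committed-like cells as a whole (0.601 to 0.636) did overlap them. In non-myogenic cells it was 0.764 to 1.20. Tnnt3 over Tnnc2 was 0.679 to 0.804 in quiescent-like cells, 0.772 to 0.881 in those barcodes, 0.496 to 0.901 in myofibre-like cells and 2.21 to 3.64 in cluster 3. It was 1.25 to 1.46 in cluster 12, 1.35 to 1.56 in committed-like cells and 0.964 to 1.47 in cycling-like cells, without overlap with quiescent-like cells. Non-myogenic cells (0.791 to 1.19) did overlap them. In those barcodes Tnnc2 was 762 and 2183 CPM in the Pax7Cre and 1071 and 886 CPM in the miR-501KO libraries, so the groups overlapped there. The part of myofibre RNA in the rise of the fast genes was not tested.

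With the 5% of quiescent-like cells richest in myofibre marker UMIs left out of each library, a choice made after the data were seen, Tnnc2 was 46.7, 47.1, 68.3 and 111 CPM, Tnni2 was 27.7, 26.5, 36.0 and 65.4 CPM, and Tnnt3 was 39.2, 33.7, 56.3 and 83.5 CPM. Those cells had held 59.4% of the Tnnc2 UMIs of miR-501KO replicate 1 and 30.8 to 36.8% in the other libraries. The log2 fold changes were then 0.89 for Tnnc2 and 0.89 for Tnnt3 (edgeR adjusted p = 0.0327 for both) and 0.86 for Tnni2, which was no longer called (adjusted p = 0.0640). With the 1% richest cells left out, the 3 genes stayed called, at 0.93, 0.98 and 0.97 for Tnnc2, Tnni2 and Tnnt3.

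**Figure D5:**
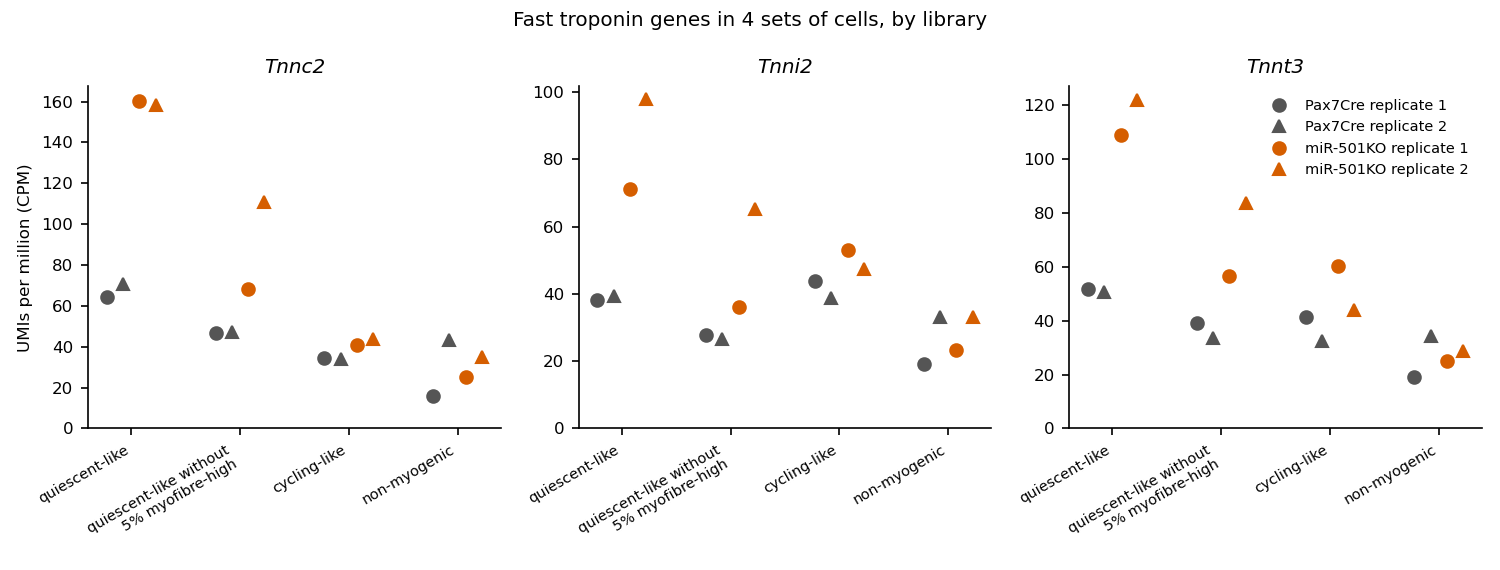
Level of Tnnc2, Tnni2 and Tnnt3 (CPM, linear axis from 0) in 4 sets of cells, with 1 point per library. In quiescent-like cells, with or without the 5% of cells richest in myofibre markers, both miR-501KO points lie above both Pax7Cre points, and in non-myogenic cells the groups overlap (16.0 to 43.4 CPM for Tnnc2). How many of all genes separate in this way was not counted.

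In cycling-like cells the fast genes differed less, and no troponin gene was called. Tnnt3 was 41.3 and 32.6 CPM in Pax7Cre and 60.2 and 43.8 CPM in miR-501KO, a log2 fold change of 0.46 ± 0.16 (edgeR adjusted p = 0.9998). Tnnc2 was 34.6 and 33.8 CPM against 41.0 and 43.9 CPM (0.30), and Tnni2 was 43.8 and 38.7 CPM against 53.1 and 47.5 CPM (0.26). For these 3 genes both miR-501KO libraries were above both Pax7Cre libraries by a margin that did not pass the test. For the other 4 the groups overlapped. The share of all genes whose groups separate in this way was not counted. The test called 1 of 13227 genes (0.00756%), and 24 (0.181%) with a block for run, with 0 troponin genes in either. At an unadjusted p under 0.05 it found 339 genes, and DESeq2 called 2.

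In committed-like cells, where the slow, cardiac and fast genes are all found, no troponin gene was called. Tnnc1 was 357 and 170 CPM in Pax7Cre and 370 and 358 CPM in miR-501KO, and Tnnt3 was 897 and 648 CPM against 1249 and 895 CPM. Tnnt2 was 2656 and 1995 CPM against 2258 and 2502 CPM. Pax7Cre replicate 2 was the lowest library for all 7 genes. All 7 log2 fold changes were above 0, from 0.01 for Tnnt2 to 0.43 ± 0.21 for Tnnt3, with a median of 0.25, against -0.01 over all genes tested. With Myog+ cells in place of these clusters 4 of the 7 were above 0, with a median of 0.02. Under the earlier naming rule 4 were above 0, and without Pax7Cre replicate 2 this fell to 3, with a median of -0.05. In the other alternatives 6 or 7 were above 0. The edgeR adjusted p was 0.99997 for each. The test called 2 of 12037 genes (0.0166%) and 71 (0.59%) with a block for run, with 0 troponin genes in either. There were 499 genes at an unadjusted p under 0.05, and DESeq2 called 3.

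The composition of the committed-like cells moved with these values: cluster 12 made up 86 of 543, 24 of 264, 65 of 239 and 37 of 249 cells. Within cluster 12 the groups overlapped for 5 genes, and Tnnc2 (2361 and 2687 against 2336 and 2269 CPM) and Tnni2 (1296 and 1481 against 1250 and 1147 CPM) were lower in miR-501KO. Within cluster 3 the groups did not overlap for Tnnc1 (13.2 and 4.61 against 22.6 and 25.6 CPM), Tnnc2 (68.8 and 57.1 against 79.2 and 69.8 CPM) and Tnnt3 (219 and 126 against 239 and 254 CPM), all higher in miR-501KO. Full separation of 2 libraries against 2 gives an exact permutation p of 0.333 for any gene. The share of all genes whose groups separate in these clusters was not counted, so these separations are a description only. Without Pax7Cre replicate 1, Tnnc1 had a log2 fold change of 1.13 in committed-like cells, and without Pax7Cre replicate 2 it was -0.05.

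The fast share in committed-like cells overlapped between the groups for troponin C and I, and for troponin T both miR-501KO libraries were above both Pax7Cre libraries. Tnnc2 made up 63.4 and 73.9% of troponin C UMIs in Pax7Cre and 68.4 and 62.0% in miR-501KO. Tnni2 made up 27.7 and 31.1% against 33.0 and 28.7% of troponin I UMIs. Tnnt3 made up 20.8 and 20.7% against 29.5 and 21.6% of troponin T UMIs. The exact permutation p was 0.667, 0.667 and 0.333 (adjusted p = 0.741 for each), and since the design cannot give a p under 0.333, no difference could pass the test. The means were 68.7 ± 5.22% and 65.2 ± 3.21% (SEM, n = 2) for troponin C, 29.4 ± 1.72% and 30.8 ± 2.14% for troponin I and 20.7 ± 0.04% and 25.5 ± 3.96% for troponin T.

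An interaction over 8 sums compared the genotype effect of committed-like cells with that of quiescent-like cells. The fast genes had the larger effect in quiescent-like cells: the difference on the log2 scale, committed-like minus quiescent-like, was -0.87 ± 0.18 for Tnnc2, -0.79 ± 0.27 for Tnni2 and -0.65 ± 0.20 for Tnnt3. None was called, with an edgeR adjusted p = 0.510 for Tnnc2 and adjusted p = 0.935 for the others. The slow and cardiac genes had differences from 0.22 for Tnni1 to 0.41 for Tnnc1. The test called 0 of 13115 genes (0%), with 662 at an unadjusted p under 0.05, and DESeq2 called 1, which was no troponin gene. With a block for run within each class it called 41 (0.313%), among them Tnnc2 (-0.87, adjusted p = 1.36e-05), Tnni2 (-0.77, adjusted p = 0.000824) and Tnnt3 (-0.65, adjusted p = 0.00111). The calls of these 3 genes therefore depended on whether run was in the model. A fit without 1 library leaves a lone library in its group, so only effect sizes are given. Without miR-501KO replicate 1 they included -1.11 for Tnnc2, -1.29 for Tnni2, -0.99 for Tnnt3, 0.36 for Tnnt1 and 0.47 for Tnnt2. The difference for Tnnc2 was -0.64 without miR-501KO replicate 2 and -1.17 without Pax7Cre replicate 2.

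Partners of troponin were read from a list of 23 genes of the thin filament and of calcium handling. In quiescent-like cells 22 were tested and 2 were called, both up. Pvalb, the calcium buffer parvalbumin, was 11.4 and 14.7 CPM in Pax7Cre and 34.1 and 36.4 CPM in miR-501KO (log2 fold change 1.39 ± 0.17, edgeR adjusted p = 9.84e-06). Acta1, the skeletal actin on which troponin sits, was 125 and 144 CPM against 243 and 250 CPM (0.82 ± 0.15, adjusted p = 0.00288). Pvalb is also one of the myofibre markers above. The list had 1 call without the 1% or the 5% of cells richest in myofibre markers and 0 without the filter on low counts. In the main fit the list had 19 of 22 log2 fold changes above 0 with a median of 0.24, against 0.00 over all genes. When 1 library was left out, the list's median ran from 0.16 (without miR-501KO replicate 1) to 0.40 (without Pax7Cre replicate 1). With a block for run Lmod2, the gene of the actin nucleator leiomodin 2, was called too (2.03, adjusted p = 0.00801, without the block 0.0682), at 0.752 and 0.295 CPM against 1.98 and 2.63 CPM.

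In the other sets 0 of the 23 genes passed without the block, with 21 tested in cycling-like and 23 in the others. The largest values were 0.96 for Lmod3 and 0.56 for Srl in cycling-like cells, and 0.73 for Lmod2 and 0.63 for Cacna1s, a subunit of the voltage sensor, in committed-like cells. Over all cells they were -0.42 for Pvalb and -0.40 for Tmod4, and in the difference between classes -1.29 for Lmod2 and -1.29 for Pvalb. With the block, Lmod2 was called in committed-like cells (0.74, adjusted p = 0.0253), at 80.2 and 64.3 CPM in Pax7Cre and 142 and 103 CPM in miR-501KO. In the difference between classes, Pvalb (-1.34, adjusted p = 0.000552) and Acta1 (-0.54, adjusted p = 0.0128) were called with the block. The list's median log2 fold change was -0.05 over all cells and 0.09 in cycling-like cells. In committed-like cells it was 0.21, and 20 of 23 values were above 0. With Myog+ cells in place of these clusters the median was -0.02, with 8 of 23 values above 0. In the other alternatives 16 to 21 were above 0.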

How the data were processed

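Each library was deposited by the authors as a matrix of raw UMI counts per gene and barcode, written by cellranger 6.0.2 per the file headers. The submitters' processing notes name Cell Ranger, GRCm39 and Seurat. The counts were not normalized, and 0 columns of per-sample values were left out. No doublet caller was run. Barcodes that reached 5000 UMIs and 1000 genes were scaled to 10000, and 2000 variable genes, 30 principal components, 15 neighbours and Leiden clustering at resolution 0.5 (leidenalg 0.10.2, igraph 0.11.9) gave the clusters. A marker counted as raised at 1.5 times the mean of the other cells and in 10% of cells, and a name needed at least 3 raised markers of 13 lists. The rule that keeps a cluster unnamed when another list has at least 0.5 of its raised markers was changed after the clusters were seen. The change came before any genotype fit. Quiescent, committed and myofibre then counted as 1 lineage, and fibroblast, tenocyte and mural as another. The mural-like cluster had 4 fibroblast markers raised and the fibroblast-like cluster had 3 tenocyte markers raised. The earlier rule is among the alternatives for committed-like clusters.

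UMIs were summed per library and set of cells and tested with edgeR 4.0.16 (quasi-likelihood, TMM, filterByExpr) in R 4.3.3, with Benjamini-Hochberg adjustment over all genes tested and a threshold of 0.05. DESeq2 1.42.0 was an alternative, along with RLE size factors, a block for run, no filter on low counts, each library left out in turn, other clusterings, a limit of 10% mitochondrial UMIs and a minimum of 2000 UMIs. The interaction was fitted over 8 sums with the library as a block. Shares were compared by exact permutation (scipy 1.17.1), and bounds of 95% on shares of UMIs or cells are Wilson intervals. Intervals and floors cover counting error only. The numbers of the libraries mark the run per the series' design text, and the run differences of the 2 groups correlated at 0.226 for the sums of whole libraries, -0.000877 (quiescent-like), -0.0496 (cycling-like) and 0.0144 (committed-like) for the sums by class. The statistical steps were tested on simulated data. Genes were named by this rule: the 7 troponin genes and Tnni3, and of 23 thin filament and calcium handling genes those called, or otherwise the 2 with the largest change in each test. For likeness, the 3 genes with the highest r were named. The members and lists were chosen with earlier results of these data known, among them the rise of fast troponin in quiescent-like cells.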

Additional observations from a re-analysis of the deposited data

Results flagged for a closer look

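Troponin RNA was also found in barcodes that no comparison uses. In the 5834 barcodes with under 5000 UMIs, summed over the 4 libraries, Tnnc2 stood at 1077 CPM, Tnnt3 at 868 CPM and Tnni2 at 618 CPM. Tnnt2 stood at 288 CPM, Tnni1 at 164 CPM, Tnnt1 at 157 CPM and Tnnc1 at 66.2 CPM. All 7 values lie above the limit that a count of 0 allows (3 UMIs). The fast genes were highest in Pax7Cre replicate 2, where Tnnc2 was 2183 CPM against 762 to 1071 CPM in the other libraries, and this is also the library with 18 of the 30 myofibre-like cells. Tnnt2 was 390 and 406 CPM in Pax7Cre replicate 1 and miR-501KO replicate 1 and 137 and 134 CPM in the replicates 2, so that it separated the runs and not the groups.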

How the results depend on the processing

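Of 644 values of troponin genes recomputed under the alternatives, 563 kept their direction and side of the threshold, 63 changed direction, 4 were no longer called and 14 were newly called. In quiescent-like cells the log2 fold change over 17 settings was 0.89 to 1.23 for Tnnc2, 0.89 to 1.24 for Tnnt3 and 0.76 to 1.33 for Tnni2. Removal of clusters from a single library took no cell from this class and repeated the main fit. Fits that left out 1 library leave a lone library in its group, so calls are not tallied here. None of the 3 genes was called without the filter on low counts. Tnni2 was also not called without the 5% of cells richest in myofibre markers. The block for run changed no call of a troponin gene other than the 3 in the difference between classes. Where a value below changed, the cause was not tested. The 2 libraries per group limit all tests. Tnnc1 and Tnni1 in quiescent-like cells rest on 268 and 571 UMIs in all.

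Counts of genes called moved more than those of troponin genes. In quiescent-like cells, 14 genes were called with DESeq2, 13 at resolution 0.3, 13 at resolution 1.0, 23 with at most 10% mitochondrial UMIs, 23 at a minimum of 2000 UMIs, 71 with the replicate block, 25 without the 1% and 17 without the 5% of cells richest in myofibre markers (2 troponin genes), and 0 without the filter on low counts (0 troponin genes). In cycling-like cells, 2 were called with DESeq2, 2 at resolution 0.3, 12 at a minimum of 2000 UMIs, 47 without the filter, 24 with the replicate block and 0 without the 5% of cells with the most UMIs. In committed-like cells, 4 were called with the mitochondrial limit, 4 at 2000 UMIs, 13 under the earlier naming rule, 85 without the filter, 71 with the replicate block and 1 without the 5% of cells with the most UMIs. DESeq2 called 13 over all cells. In the difference between classes, 1 was called with DESeq2, 65 without the filter (3 troponin genes), 41 with the replicate block by class (3 troponin genes), and 1 without the 5% of cells with the most UMIs. Myog+ cells in place of the committed-like clusters gave 0.

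Signs changed for values near 0 and also for larger ones, such as Tnnc2 over all cells (-0.37 in the main fit) and in committed-like cells (0.29). Without the 5% of cells with the most UMIs, all cells gave 0.30 for Tnnc2, 0.26 for Tnni2 and 0.25 for Tnnt3, cycling-like cells gave -0.022 for Tnnc1, -0.10 for Tnni1, -0.026 for Tnni2 and -0.028 for Tnnt2, and committed-like cells gave -0.072 for Tnnt2. Tnni1 in quiescent-like cells was 0.032 at resolution 1.0, and Tnnc1 was -0.24 there without the 5% of cells richest in myofibre markers. In committed-like cells, Myog+ cells gave -0.21 for Tnnc2, -0.080 for Tnni2, -0.092 for Tnnt2 and a difference of -1.90 points in the fast share of troponin I. The earlier naming rule gave -0.12 for Tnni1, -0.025 for Tnnt1 and -0.14 for Tnnt2, with -0.025 for Tnni1 in the difference between classes. Tnnt2 was -0.000459 with sarcomere genes kept for clustering and -0.0077 without the filter. For shares of all cells with a UMI, Tnnt1 was -2.90 and Tnnt2 was -1.24 points without thinning, and without clusters from a single library Tnni1 was -0.137, Tnnt1 -3.80 and Tnnt2 -2.00 points.

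Leaving out 1 library gave the widest ranges, where the lone library of its group is assumed to vary like the others. Over all cells the genes called ran from 0 to 3 (3 without Pax7Cre replicate 2), with Tnnc1 from -0.27 to 0.92, Tnnc2 from -1.08 to 1.07, Tnni1 from -0.38 to 0.30, Tnni2 from -0.91 to 0.84, Tnnt1 from -0.40 to 0.23, Tnnt2 from -0.48 to 0.17 and Tnnt3 from -0.69 to 0.76. In quiescent-like cells the genes called ran from 19 to 225, at 19 without Pax7Cre replicate 1, 78 without Pax7Cre replicate 2, 120 without miR-501KO replicate 1 and 225 without miR-501KO replicate 2, with 3 troponin genes each time. Tnnc1 ran from -0.34 to 0.36, Tnni1 from -0.45 to 0.41, Tnnt1 from -0.23 to 0.11 and Tnnt2 from -0.81 to 0.22. In cycling-like cells the genes called ran from 7 (without miR-501KO replicate 1) to 38 (without Pax7Cre replicate 2), with Tnnc1 from -0.27 to 0.42, Tnni1 from -0.40 to 0.62, Tnnt1 from -0.52 to 0.19 and Tnnt2 from -0.31 to 0.43. In committed-like cells they ran from 20 (without Pax7Cre replicate 2) to 102 (without miR-501KO replicate 2) with 0 to 1 troponin genes, and Tnnc1 from -0.049 to 1.13, Tnni1 from -0.20 to 0.52, Tnnt1 from -0.12 to 0.64 and Tnnt2 from -0.23 to 0.29. In the difference between classes they ran from 2 (without Pax7Cre replicate 1) to 166 (without miR-501KO replicate 1), with 0 to 5 troponin genes. The shares of all cells ran from -0.286 to 11.1 points for Tnnc1, -2.53 to 17.4 for Tnni1, -6.06 to 6.50 for Tnnt1 and -3.12 to 13.5 for Tnnt2, and the fast share from -8.73 to 1.72 points for troponin C and -0.675 to 3.60 for troponin I.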

Other observations

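Cluster 6, found in miR-501KO replicate 1 alone, held all 7 troponin genes: 672 CPM of Tnnc2, 489 CPM of Tnnt3, 483 CPM of Tnnt2, 389 CPM of Tnni2, 290 CPM of Tnni1, 222 CPM of Tnnt1 and 117 CPM of Tnnc1. Of that library's Tnnc1 UMIs 31.7% lay there, and of its Tnnt3 UMIs 18.3%. Its leading genes were Gzma, Dqx1, Fhl3 and Mylpf, and it joined macrophage with myofibre and commitment markers in 659 cells. Cluster 2, the largest unnamed cluster with 2107 cells, led by Spp1 and Mme, held Tnnt2 at 265, 191, 203 and 230 CPM and Tnnt1 at 209, 103, 120 and 156 CPM in Pax7Cre replicates 1 and 2 and miR-501KO replicates 1 and 2. Tnni3, the cardiac troponin I gene, stood at 0.648, 0.487, 0.507 and 0.868 CPM over all kept cells of the 4 libraries.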
